A study of Mus musculus with 6 samples.

Results

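The genes described here are 41 genes of the peroxisome, out of 21899 genes in the deposited table, chosen by symbol from a fixed list. They comprise 13 peroxins, which build the organelle, 24 enzymes of its matrix, and 4 others, the membrane proteins Pxmp2, Pxmp4 and Mpv17 and the membrane-anchored enzyme Far1. All 41 had a row in the table and 39 passed the filter on low counts. The oxidases Dao and Hao2 did not pass. The libraries were made from liver polyA RNA of wild-type C57BL6J mice fed for 6 weeks either a diet without methionine and choline (MCD, 3 libraries), which is used to model metabolic dysfunction-associated steatohepatitis, or a diet sufficient in both (MCS, 3 libraries). Total counts were between 16615469 and 21322771 per library, so that 3 counts corresponded to 0.104 to 0.227 CPM, the counts scaled to a fixed library size adjusted by TMM. Whether each library is a separate mouse is not stated in the labels; the p-values therefore cover the spread among these 6 samples, part or all of which may be technical. The liver label was checked on albumin (Alb), a defining gene of hepatocytes, which was abundant in every library, with 58055, 71839.7 and 43222 CPM in MCD replicates 1 to 3, against 53346, 50635 and 73708 CPM in MCS replicates 1 to 3.

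Peroxisomes are single-membrane organelles that carry out beta-oxidation of very long-chain and branched fatty acids and of bile acid precursors, alpha-oxidation of phytanic acid, the first steps of ether lipid synthesis, glyoxylate removal and hydrogen peroxide breakdown. They have no DNA, and their matrix proteins are made in the cytosol and carried in by the receptors PEX5 and PEX7, which dock on PEX13 and PEX14 and are recycled by a RING ubiquitin ligase and an ATPase complex. In rodent liver many of the beta-oxidation genes are classical targets of the fatty acid receptor PPARA.

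Relative to the bulk of liver genes, transcripts of the peroxisome were mostly lower on the MCD diet. Of the 39 tested members 19 fell, 2 rose and 18 did not pass at an adjusted p under 0.05 in edgeR's quasi-likelihood test. Over all 12599 tested genes the test called 24.7%, with 9.97% downward and 14.8% upward. On TMM-scaled CPM the diets were without overlap for 31 of the 39 members, against 45.3% of all tested genes. Statements on overlap of single genes refer to this scale unless TPM is named, and overlap too depends on the scaling. The median log2 fold change of MCD over MCS was -0.64 over the 39 members, against 0.01 over all tested genes, and 36 of the 39 values were below 0. Steepest were the falls of Nudt7, Hacl1 and Acaa1b, and the 2 rises were those of the ether lipid enzymes Agps and Far1. How much of the broad fall is seen depends on the scaling. The median of the 39 members was -0.12 with library size alone, 0.01 on the log2(TPM + 1) scale, where TPM is the deposited length-corrected abundance, and 0.01 when the libraries were scaled to hepatocyte markers, a setting chosen after seeing the data. Under those settings 6, 6 and 4 members fell and 5, 6 and 5 rose. The median of all tested genes moved with them, to 0.57, 0.53 and 0.73. Over all tested genes 5095, 5449 and 5064 were then called upward and 348, 264 and 212 downward. The members' median stayed below that of all genes under each scaling. Library size alone and hepatocyte marker scaling shift all genes nearly alike, so this was fixed in advance there and is no separate support. Under all 14 other settings tried the falls of Nudt7, Hacl1 and Acaa1b passed.

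Beside this result stands the level of hepatocyte markers. Of the 12 on the list 11 were tested, 2 fell (the fibrinogen chains Fga and Fgb), 0 rose, and their median log2 fold change was -0.71, with 11 of 11 below 0. Their summed level was 66431 to 109864 CPM in the MCD libraries, against 108795 to 112577 CPM in the MCS libraries. In TPM the direction was the opposite, with 91666 to 108349 in the MCD libraries, against 80373 to 87495 in the MCS libraries. Whether the hepatocyte markers as a sum were lower or higher on the MCD diet thus depends on the scaling. The direction in TPM rests on Alb. It averaged 60431 of 101573 TPM in the MCD libraries and 40142 of 83850 TPM in the MCS libraries. The median log2 fold change of the tested markers was -0.06 on the log2(TPM + 1) scale. Macrophage markers rose in 9 of 9 cases, with a summed level of 1480.0 to 3657 CPM in the MCD libraries, against 282 to 372 CPM in the MCS libraries; none was at 0. Stellate cell and fibroblast markers rose in 3 of 6 cases (291 to 1370.2 CPM, against 120 to 189 CPM in the MCS libraries) and cholangiocyte markers in 3 of 4 (16.6 to 39.2 CPM, against 7.01 to 8.51 CPM in the MCS libraries), while 0 of 4 endothelial markers passed (38.8 to 176 CPM, against 60.3 to 245 CPM in the MCS libraries). In bulk RNA a lower share of hepatocytes and less of a transcript per hepatocyte cannot be told apart, and the part of these cell types in the members' values was not tested.

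**Figure D1:**
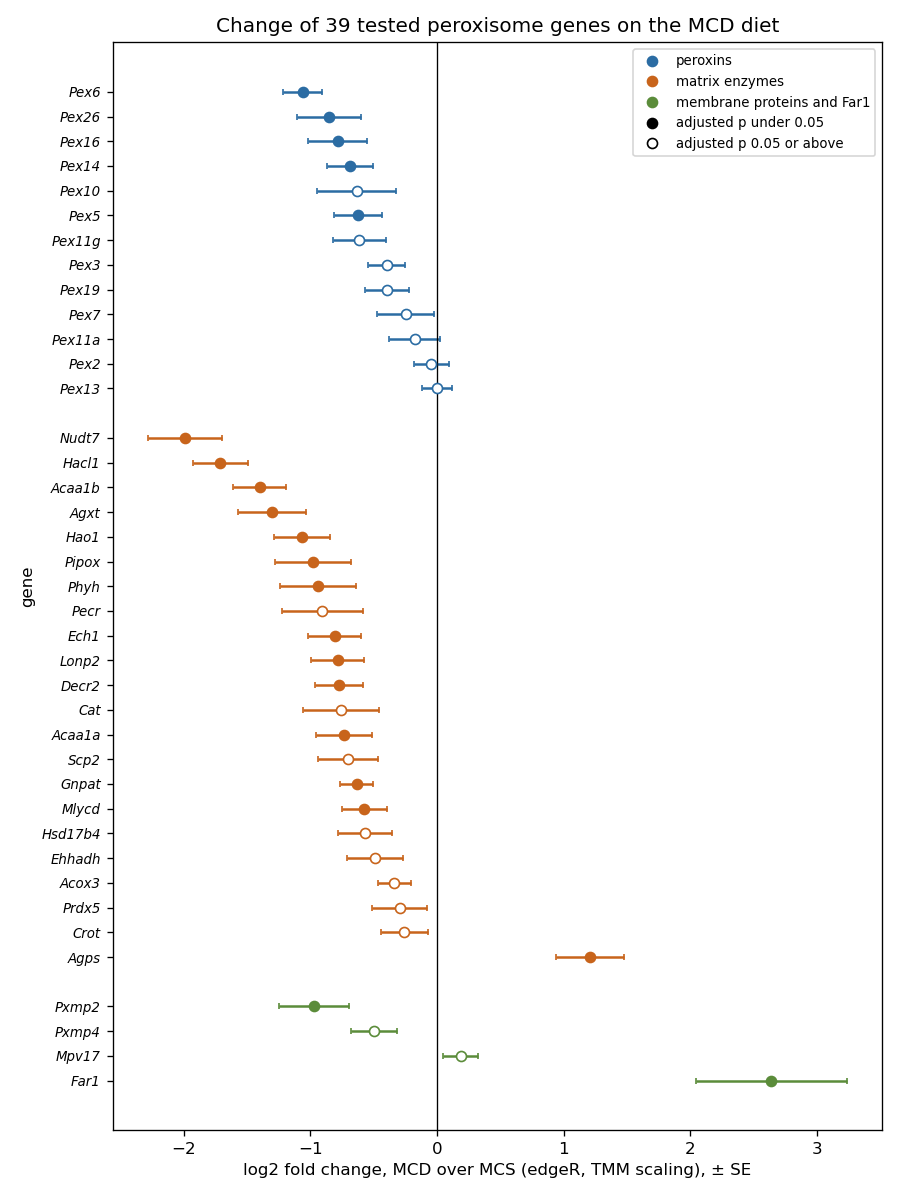
Log2 fold change of MCD over MCS (x axis, ± SE, 3 libraries per diet) for each of the 39 tested members (y axis), grouped as peroxins, matrix enzymes, and membrane proteins with Far1; filled points passed at an adjusted p under 0.05. All 13 peroxins and 21 of 22 matrix enzymes lie below 0, and Agps and Far1 are the called points to the right.

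Nudt7 (ENSMUSG00000031767), a peroxisomal hydrolase that cleaves coenzyme A and its esters, fell most. Its level was 149, 184 and 83.5 CPM in MCD replicates 1 to 3, against 648, 488 and 523 CPM in MCS replicates 1 to 3. The MCD libraries were all below the MCS libraries, with MCD replicate 3 the lowest. The log2 fold change was -1.99 ± 0.30 (adjusted p = 0.00280). Hacl1 (ENSMUSG00000021884) encodes the lyase that shortens 2-hydroxy acyl-CoA in alpha-oxidation, and had 65.1, 103 and 66.6 CPM on the MCD diet, against 235, 252 and 281 CPM on the MCS diet. There was no overlap between the diets, and the log2 fold change for Hacl1 was -1.71 ± 0.21 (adjusted p = 0.00139). Both calls held in each fit with 1 library left out.

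Acaa1b (ENSMUSG00000010651) and Acaa1a (ENSMUSG00000036138) encode the 2 mouse copies of the peroxisomal 3-ketoacyl-CoA thiolase, the last enzyme of straight-chain beta-oxidation. Acaa1b had 649, 663 and 721 CPM on the MCD diet, against 1668, 1803 and 1899 CPM on the MCS diet. MCD libraries lay within a narrow band far below the MCS libraries, and the log2 fold change was -1.40 ± 0.21 (adjusted p = 0.00288). For Acaa1a the values were 213, 308 and 185 CPM on the MCD diet, against 375, 398 and 402 CPM on the MCS diet. These diets did not overlap either, with a smaller log2 fold change of -0.74 ± 0.22 (adjusted p = 0.0393). The call of Acaa1a ended without MCD replicate 1, MCD replicate 3 or any single MCS library (adjusted p = 0.0612 to 0.155). The copies are near-identical and counting can divide their reads, so the sum was also tested: it fell, with a log2 fold change of -1.26 ± 0.22 (adjusted p = 0.00518). Acaa1b exceeded Acaa1a in TPM by 3.17, 2.24 and 4.03 times in MCD replicates 1 to 3 and by 4.61, 4.69 and 4.91 times in MCS replicates 1 to 3.

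**Figure D2:**
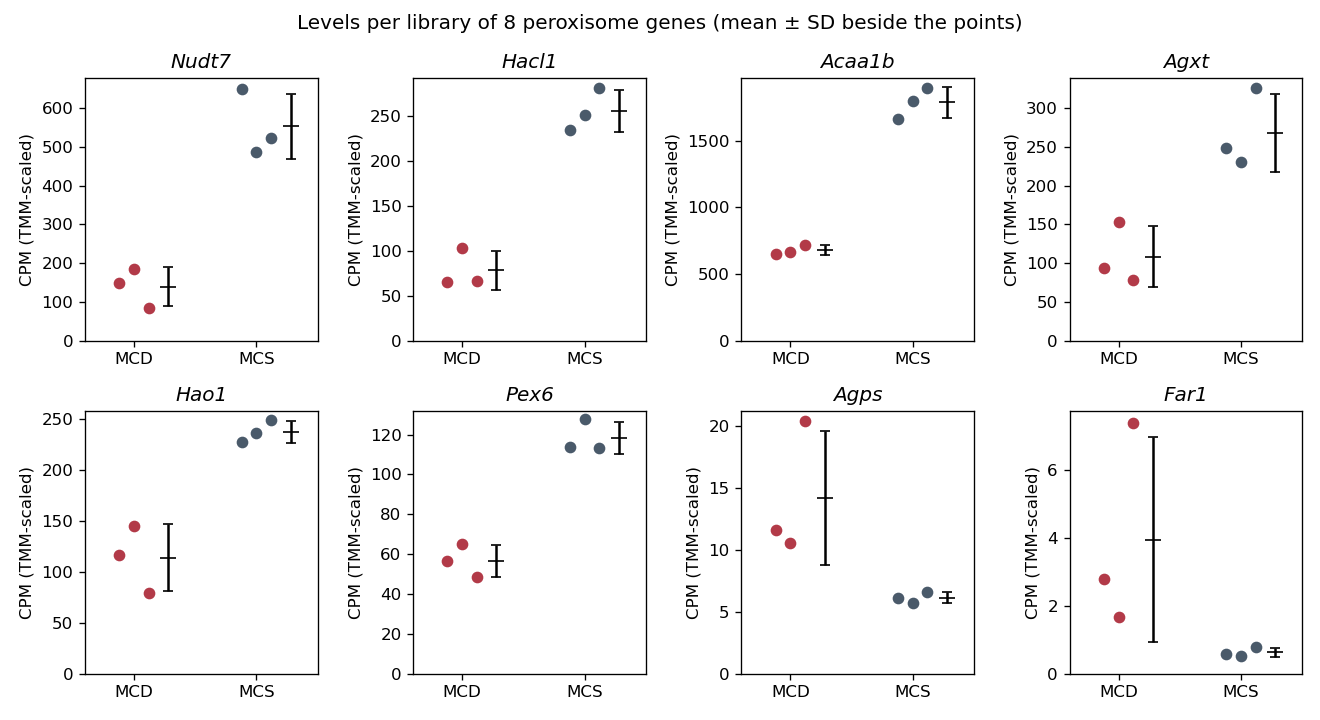
Level of 8 members in each library (points, CPM on TMM-scaled library sizes, y axis from 0) on the MCD and the MCS diet, with mean ± SD beside the 3 points. The diets do not overlap in any panel; Agps and Far1 are higher on the MCD diet, where MCD replicate 3 (20.5 and 7.38 CPM) stands above the other 2.

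With Nudt7 and the thiolases, 12 members act in beta-oxidation or help it. Of these 6 fell, 6 did not pass, and in 11 every MCD library lay below every MCS library on TMM-scaled CPM. Over all tested genes 21.3% had no overlap in that direction. In TPM every MCD library lay below every MCS library only for Nudt7, Acaa1b and Ech1 of this group. Decr2, the peroxisomal 2,4-dienoyl-CoA reductase for polyunsaturated fatty acids, had 245, 316 and 234 CPM on the MCD diet, against 429, 469.8 and 465 CPM on the MCS diet. Ech1, an isomerase of dienoyl-CoA, had 294, 357 and 228 CPM on the MCD diet, against 521, 501 and 519 CPM on the MCS diet. In both genes MCD replicate 2 was the highest MCD library and still below every MCS library. Their log2 fold changes were -0.78 ± 0.19 (adjusted p = 0.0197) and -0.81 ± 0.21 (adjusted p = 0.0242). Mlycd, the malonyl-CoA decarboxylase, which works in peroxisomes, mitochondria and cytosol, had 78.5, 96.5 and 62.1 CPM on the MCD diet, against 112, 113 and 127 CPM on the MCS diet. Its log2 fold change was -0.57 ± 0.18 (adjusted p = 0.0463), close to the threshold, and 0.07 and 0.08 on the log2(TPM + 1) scale and with hepatocyte marker scaling. With 1 library left out, Decr2 did not pass in 3 of 6 fits (those without MCD replicate 1, MCS replicate 1 and MCS replicate 2, at adjusted p = 0.0690 to 0.102), Ech1 in 4 (MCD replicate 1 or any MCS library; adjusted p = 0.0563 to 0.0978) and Mlycd in 5 (any but MCD replicate 2; adjusted p = 0.0720 to 0.143).

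Scp2, whose products are a thiolase for branched chains and a lipid carrier, was the most abundant member by mean TPM. Its level was 2253, 2402 and 1959 CPM on the MCD diet, against 3841, 3628 and 3302 CPM on the MCS diet. The diets did not overlap, yet the log2 fold change of -0.70 ± 0.24 (adjusted p = 0.0598) did not pass. Neither of the bifunctional enzymes, which hydrate and oxidise the acyl chain, passed. Ehhadh was at -0.49 ± 0.22 (adjusted p = 0.133) and Hsd17b4 at -0.57 ± 0.21 (adjusted p = 0.0823) on the log2 scale. Ehhadh had 469, 463 and 609.7 CPM on the MCD diet, against 853, 701 and 615 CPM on the MCS diet. Its highest MCD library, replicate 3, almost met its lowest MCS library, also a replicate 3. The reductase Pecr had -0.91 ± 0.32 (adjusted p = 0.0713), the oxidase Acox3 -0.34 ± 0.13 (adjusted p = 0.0885) and the octanoyltransferase Crot, which prepares shortened acyl chains for export, -0.26 ± 0.18 (adjusted p = 0.331). Crot was the 1 gene of this group in which the diets overlapped on TMM-scaled CPM.

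Beside Hacl1, Phyh encodes the hydroxylase that opens phytanic acid oxidation. It had 1289, 1929 and 1053 CPM on the MCD diet, against 2381, 2481 and 3344 CPM on the MCS diet. MCS replicate 3 was the highest and MCD replicate 3 the lowest library, and the log2 fold change of -0.94 ± 0.30 (adjusted p = 0.0485) lay just inside the threshold. It did not pass in 5 of 6 fits with 1 library left out (any but MCD replicate 2; adjusted p = 0.0814 to 0.177) nor without the count filter.

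Enzymes of hydroxy acids and amino acids fell in all 3 tested cases. Hao1, the glycolate oxidase that makes glyoxylate, had 117, 145 and 79.3 CPM on the MCD diet, against 228, 236 and 249 CPM on the MCS diet. Agxt, the aminotransferase that turns glyoxylate into glycine, had 93.9, 153 and 78.4 CPM on the MCD diet, against 249, 230.1 and 326 CPM on the MCS diet. MCD replicate 2 was the highest MCD library for both and lay below all MCS libraries. Log2 fold changes were -1.06 ± 0.22 (adjusted p = 0.0109) for Hao1 and -1.31 ± 0.27 (adjusted p = 0.0104) for Agxt. Pipox, which oxidises pipecolic acid and sarcosine, had 104, 161 and 68.1 CPM on the MCD diet, against 198, 191 and 267 CPM on the MCS diet and a log2 fold change of -0.98 ± 0.30 (adjusted p = 0.0420). Pipox did not pass in 5 of 6 fits with 1 library left out (any but MCD replicate 2; adjusted p = 0.0542 to 0.134), and Agxt missed the threshold without MCD replicate 1 (adjusted p = 0.0515). Dao, the D-amino acid oxidase, had 0 counts in every library, a level that allows up to 0.104 to 0.227 CPM. Hao2, a long-chain hydroxy acid oxidase, had 4, 3 and 5 counts in MCD replicates 1 to 3 and 1, 0 and 5 counts in MCS replicates 1 to 3, too few for a test.

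Neither gene of peroxide removal passed. Catalase (Cat), which breaks down hydrogen peroxide, had 2339.7, 2723 and 1492 CPM on the MCD diet, against 3326, 3305 and 4436 CPM on the MCS diet. The diets did not overlap, but replicate 3 was the lowest MCD and the highest MCS library, and the log2 fold change was -0.76 ± 0.30 (adjusted p = 0.0962). Prdx5, a peroxiredoxin shared with mitochondria and cytosol, had -0.30 ± 0.22 (adjusted p = 0.345), with overlapping diets. Lonp2, the peroxisomal Lon protease, fell, with 279, 301 and 196 CPM on the MCD diet, against 432, 463 and 442 CPM on the MCS diet and a log2 fold change of -0.79 ± 0.21 (adjusted p = 0.0256). Lonp2 did not pass without MCD replicate 1 or any single MCS library (adjusted p = 0.0564 to 0.100).

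Of the membrane proteins Pxmp2, a channel for small solutes, fell. Its level was 66.4, 109.7 and 55.4 CPM on the MCD diet, against 127, 132 and 196 CPM on the MCS diet, with a log2 fold change of -0.97 ± 0.28 (adjusted p = 0.0342). It passed in 1 of 6 fits with a library left out, that without MCD replicate 2; in the others adjusted p was 0.0670 to 0.123. Pxmp4 had -0.49 ± 0.18 (adjusted p = 0.0773). Mpv17, first described as peroxisomal and since placed in the inner mitochondrial membrane, had 0.19 ± 0.14 (adjusted p = 0.345). It was higher and passed with library size alone, on the log2(TPM + 1) scale and with hepatocyte marker scaling (0.72, 0.81 and 0.86). The medians of all 12599 tested genes there were 0.57, 0.53 and 0.73, and 5095, 5449 and 5064 were called upward.

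The 3 genes of ether lipid synthesis did not move together. Gnpat, the acyltransferase of the first step, had 41.6, 45.8 and 36.6 CPM on the MCD diet, against 62.8, 66.3 and 63.4 CPM on the MCS diet. It fell, at -0.63 ± 0.13 (adjusted p = 0.0107) on the log2 scale with no overlap between the diets, though on the log2(TPM + 1) scale and with hepatocyte marker scaling its value was 0.03 and 0.05 and did not pass. Agps (ENSMUSG00000042410), the synthase that puts the alkyl chain in place in the second step, had 11.6, 10.5 and 20.5 CPM on the MCD diet, against 6.10, 5.74 and 6.62 CPM on the MCS diet. Far1 (ENSMUSG00000030759), the reductase that supplies the fatty alcohol, had 2.79, 1.67 and 7.38 CPM on the MCD diet, against 0.575, 0.529 and 0.772 CPM on the MCS diet. For both, every MCD library was above every MCS library and MCD replicate 3 was highest. Log2 fold changes were 1.21 ± 0.27 (adjusted p = 0.0141) for Agps and 2.64 ± 0.60 (adjusted p = 0.0148) for Far1. Both rises also passed with library size alone, on the log2(TPM + 1) scale and with hepatocyte marker scaling. Those settings moved the median of all tested genes upward, to 0.57, 0.53 and 0.73, so passing there is no separate support for a rise. Leaving out MCS replicate 1, or MCS replicate 2, ended both calls (adjusted p = 0.0567 to 0.0600 for Agps, 0.0611 to 0.0620 for Far1), and limma-voom did not call Far1 (2.42 on the log2 scale, adjusted p = 0.0779). Without MCD replicate 3 the log2 fold change was 0.85 for Agps and 1.81 for Far1. The Gnpat call ended without MCD replicate 1, and without MCS replicate 2 (adjusted p = 0.0515 to 0.0540). Among the MCD libraries, MCD replicate 3 was also the highest for 9 of 9 macrophage and 6 of 6 stellate cell and fibroblast markers. The same held for 4 of 4 endothelial and 4 of 4 cholangiocyte markers, against 1 of 11 hepatocyte markers. The share over all tested genes was not counted, and the part of these cells in the rises was not tested. Counts of Far1 were low, 342 over the 6 libraries.

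The promoters of the 3 steepest falls, of the second thiolase copy and of the 2 rises are shown because they let the opposite ends of the group be compared. They are the 250 bases upstream of the transcript start in RefSeq (GRCm38.p6, read on the gene's strand), at chr8:114133368-114133617 for Nudt7 (plus strand), chr14:31640966-31641215 for Hacl1 (minus), chr9:119157094-119157343 for Acaa1b (minus), chr9:119341044-119341293 for Acaa1a (plus), chr2:75831927-75832176 for Agps (plus) and chr7:113513584-113513833 for Far1 (plus). Nudt7 has 2 listed starts and the first was taken. Capitals mark GGGCGG (the GC box), CCAAT and, in Nudt7, the NRF1 palindrome, on either strand.
Nudt7: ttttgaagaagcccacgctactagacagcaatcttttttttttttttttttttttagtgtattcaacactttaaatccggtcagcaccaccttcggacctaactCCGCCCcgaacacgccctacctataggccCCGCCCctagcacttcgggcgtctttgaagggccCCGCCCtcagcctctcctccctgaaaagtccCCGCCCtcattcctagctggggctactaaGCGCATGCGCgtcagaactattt
Hacl1: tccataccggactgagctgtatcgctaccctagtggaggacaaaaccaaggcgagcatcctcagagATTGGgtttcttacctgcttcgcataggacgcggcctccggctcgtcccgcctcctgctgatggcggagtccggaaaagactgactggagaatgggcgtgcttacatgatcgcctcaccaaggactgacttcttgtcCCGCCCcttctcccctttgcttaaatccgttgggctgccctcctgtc
Acaa1b: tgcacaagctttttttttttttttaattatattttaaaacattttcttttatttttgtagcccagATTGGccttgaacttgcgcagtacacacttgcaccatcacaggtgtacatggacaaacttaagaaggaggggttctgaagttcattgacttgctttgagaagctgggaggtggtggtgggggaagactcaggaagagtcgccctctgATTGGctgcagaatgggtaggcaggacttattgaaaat
Acaa1a: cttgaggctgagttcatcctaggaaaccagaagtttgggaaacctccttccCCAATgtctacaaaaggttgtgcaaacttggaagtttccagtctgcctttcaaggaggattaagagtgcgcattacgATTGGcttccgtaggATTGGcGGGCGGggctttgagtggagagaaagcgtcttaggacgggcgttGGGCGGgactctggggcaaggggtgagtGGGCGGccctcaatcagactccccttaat
Agps: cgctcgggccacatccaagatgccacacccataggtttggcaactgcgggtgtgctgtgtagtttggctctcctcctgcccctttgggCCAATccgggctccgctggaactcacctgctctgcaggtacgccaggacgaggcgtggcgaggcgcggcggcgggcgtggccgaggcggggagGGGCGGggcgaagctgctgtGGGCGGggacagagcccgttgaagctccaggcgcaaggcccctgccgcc
Far1: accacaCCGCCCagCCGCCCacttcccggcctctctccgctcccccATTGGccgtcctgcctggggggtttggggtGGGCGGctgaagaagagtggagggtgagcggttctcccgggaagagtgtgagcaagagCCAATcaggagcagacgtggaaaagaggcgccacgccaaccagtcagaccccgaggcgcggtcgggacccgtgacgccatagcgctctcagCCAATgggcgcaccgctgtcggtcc

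The thiolase copies differ in these letters: Acaa1a has 3 GC boxes and 10 CpG dinucleotides, Acaa1b has 0 GC boxes and 2 CpG dinucleotides, and both hold CCAAT. Among the fallen genes Nudt7 has 4 GC boxes and Hacl1 has 1, while among the risen genes Agps has 2 and Far1 has 3, so these words did not separate falls from rises. Of the members 37 of 41 had a promoter in the table. A GC box occurred in 7 of 11 peroxin promoters and 16 of 23 matrix enzyme promoters, against 35.4% of all 27025 genes with a promoter. CCAAT occurred in 3 of 11 and 10 of 23, against 37.5% of all. The median number of CpG dinucleotides was 11 in peroxin and 12 in matrix enzyme promoters, against 6 over all genes. The GC box itself contains a CpG, and its share among other promoters as rich in CpG was not tested. The NRF1 palindrome was found in 0.877% of all genes and in 1 member, Nudt7. The textbook PPARA element, AGGTCA repeated after 1 base, occurred in 0.041% of all genes and in 0 members, and the looser repeat of AGGNCA in 0.4% and in 0 members. Those searches took both strands of the 250-base window only.

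Among peroxins 5 of 13 fell, 0 rose and 8 did not pass, and all 13 log2 fold changes were below 0 with TMM scaling, while their median was 0.01 on the log2(TPM + 1) scale and 0.03 with hepatocyte marker scaling. Pex6 (ENSMUSG00000002763), an ATPase that pulls the receptors back out of the membrane, changed most. Its level was 56.3, 64.9 and 48.6 CPM on the MCD diet, against 114, 128 and 113 CPM on the MCS diet. The diets were far apart and the libraries of each diet close together, and the Pex6 log2 fold change was -1.06 ± 0.15 (adjusted p = 0.00244). It was the 1 peroxin that also fell with library size alone (-0.53, adjusted p = 0.00957) and on the log2(TPM + 1) scale (-0.40, adjusted p = 0.0277). With hepatocyte marker scaling it did not pass (-0.38, adjusted p = 0.107). Pex26, the membrane anchor of the same complex, had 19.5, 27.6 and 14.5 CPM on the MCD diet, against 47.1, 29.9 and 34.2 CPM on the MCS diet. MCS replicate 1 stood above the other MCS libraries, and the Pex26 log2 fold change was -0.86 ± 0.25 (adjusted p = 0.0387).

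Import factors were split. The receptor Pex5, which carries most matrix enzymes by their C-terminal signal, had 104, 119.8 and 72.7 CPM on the MCD diet, against 147, 155 and 154 CPM on the MCS diet. Its partner receptor Pex7, which reads an N-terminal signal, had overlapping diets. Log2 fold changes were -0.62 ± 0.19 (adjusted p = 0.0447) for Pex5 and -0.25 ± 0.22 (adjusted p = 0.445) for Pex7; on the log2(TPM + 1) scale both were above 0 (0.01 and 0.38), and neither passed. At the docking site Pex14 had 51.4, 65.6 and 40.8 CPM on the MCD diet, against 84.5, 89.2 and 80.2 CPM on the MCS diet, while Pex13 averaged 36.9 ± 1.26 CPM in the MCD libraries and 36.9 ± 2.51 CPM in the MCS libraries (SD, n = 3 each). Pex14 fell, with -0.69 ± 0.18 (adjusted p = 0.0256), and Pex13 was at -0.00 ± 0.12 on the log2 scale (adjusted p = 0.995). The RING subunits Pex2 and Pex10 had -0.05 ± 0.14 (adjusted p = 0.831) and -0.64 ± 0.32 (adjusted p = 0.170). Pex2 had 39.1, 40.4 and 33.4 CPM on the MCD diet, against 35.8, 37.3 and 43.3 CPM on the MCS diet, with overlap, and Pex10 was the lowest peroxin, at 2.54 to 4.34 CPM on the MCD diet and 3.85 to 5.98 CPM on the MCS diet.

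For the insertion of membrane proteins, Pex16, which receives them at the membrane, had 40.3, 68.0 and 35.2 CPM on the MCD diet, against 78.5, 80.1 and 88.9 CPM on the MCS diet. It fell, with a log2 value of -0.79 ± 0.23 (adjusted p = 0.0396), and had MCD replicate 2 well above the other MCD libraries. The chaperone Pex19, the most abundant peroxin by mean TPM, had 136, 165 and 113 CPM on the MCD diet, against 177, 186 and 181 CPM on the MCS diet. The diets did not overlap, and the log2 fold change was -0.39 ± 0.17 (adjusted p = 0.129); that of its docking partner Pex3 was -0.40 ± 0.15 (adjusted p = 0.0772). Of the genes of peroxisome division, Pex11a had 107, 144 and 93.3 CPM on the MCD diet, against 118, 153 and 118 CPM on the MCS diet, with overlap and -0.18 ± 0.20 (adjusted p = 0.550), and Pex11g had -0.61 ± 0.21 (adjusted p = 0.0610) without overlap. With 1 library left out, Pex5, Pex16 and Pex26 did not pass in 5 of 6 fits (any but MCD replicate 2; adjusted p = 0.0519 to 0.143), and Pex14 in 4 (MCD replicate 1 or any MCS library; adjusted p = 0.0508 to 0.0960). Pex2 and Pex13 were higher and passed with library size alone (0.49 and 0.55), on the log2(TPM + 1) scale (0.60 and 0.63) and with hepatocyte marker scaling (0.63 and 0.70). Pex11a was higher and passed on the log2(TPM + 1) scale (0.47, adjusted p = 0.0247). Over all 12599 tested genes the medians under those settings were 0.57, 0.53 and 0.73, and 5095, 5449 and 5064 were called upward. The values of Pex2, Pex13 and Pex11a thus lay near the median of all genes.

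Matrix enzymes and peroxins were compared by counts and medians. Of 22 tested matrix enzymes 13 fell, 1 rose and 8 did not pass, with a median log2 fold change of -0.77, against 5 falls among 13 peroxins with a median of -0.61. The median of the peroxins was thus 0.15 above that of the matrix enzymes. This difference does not move with a scaling that shifts all genes alike; it was 0.13 to 0.15 in the settings with all 6 libraries and 0.13 to 0.32 with 1 library left out. Ranges overlapped widely, from -1.06 to 0.00 for peroxins and from -1.99 to 1.21 for matrix enzymes, so the classes were not separate.

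Summed over the class, matrix enzymes had 10973, 11141 and 10763 TPM in MCD replicates 1 to 3, against 11692, 11337 and 14422 TPM in MCS replicates 1 to 3. All 3 MCD sums were below the lowest MCS sum, by little for MCS replicate 2. Peroxins summed to 679, 717 and 659.6 TPM in the MCD libraries, against 582, 599 and 659 TPM in the MCS libraries. On this scale every MCD peroxin sum was above every MCS sum, narrowly for the replicates 3, where the TMM-scaled sums, 574 to 878 CPM against 981 to 1035 CPM in the MCS libraries, were lower. The ratio of the 2 sums within a library depends on no scaling between libraries. Per peroxin transcript there were 16.2, 15.5 and 16.3 matrix enzyme transcripts in the MCD libraries, against 20.1, 18.9 and 21.9 in the MCS libraries. The ratio was lower in every MCD library than in any MCS library; no test was made of these sums. Scp2, Phyh, Cat and Acaa1b made up 61.3% to 62.2% of the members' TPM in the MCD libraries and 61.3% to 64.6% in the MCS libraries, so the matrix sum is largely that of these 4 genes. All members together took 1.17% to 1.22% of a library's TPM on the MCD diet and 1.22% to 1.55% on the MCS diet.

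**Figure D3:**
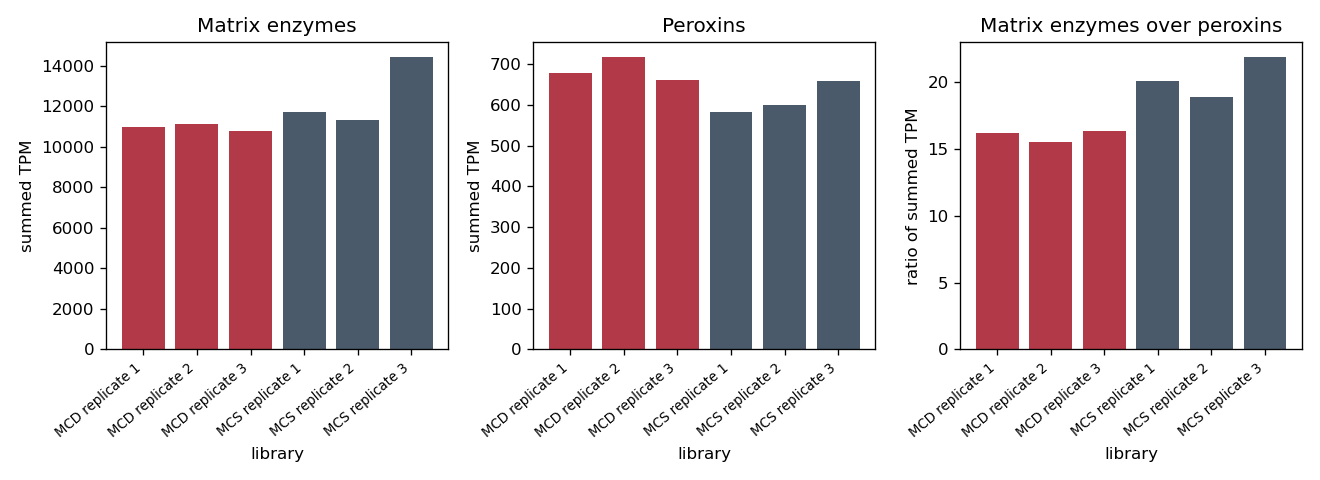
Summed TPM of the 24 matrix enzymes (left) and of the 13 peroxins (middle), and the ratio of the 2 sums (right), in each library, MCD libraries in red and MCS libraries in slate. Ratios lie between 15.5 and 16.3 in the MCD libraries and between 18.9 and 21.9 in the MCS libraries.

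On TMM-scaled CPM most members varied together across the MCD libraries, as did genes of some other lists. MCD replicate 2 was the highest MCD library for 33 of the 39 tested members, among them 13 of 13 peroxins, and MCD replicate 3 for 5, which were Ehhadh, Acaa1b, Crot, Agps and Far1. For hepatocyte markers MCD replicate 2 was the highest MCD library in 10 of 11 cases. It was so for 25 of 35 other peroxisomal genes and 16 of 24 genes of the PPARA list, both described below. For macrophage, stellate cell and fibroblast, endothelial and cholangiocyte markers MCD replicate 3 was the highest, as given above. TMM factors were 1.207, 1.039 and 1.407 in MCD replicates 1 to 3, and the ranking depends on the scaling. In TPM, MCD replicate 2 was not the highest MCD library for Pex2, Pex3, Pex5, Pex6, Pex11g and Pex13, while for the other peroxins it was. Other members were not ranked in TPM. The share over all tested genes was not counted, so the pattern cannot be called particular to the members. In the MCS libraries the members were spread, with replicate 3 the highest for 19, replicate 2 for 13 and replicate 1 for 7. Levels and changes were related loosely: over the 39 members, Spearman's rho between mean TPM in the MCS libraries and the log2 fold change was -0.52, and within the 22 matrix enzymes it was -0.27. These values are across genes of the same libraries, which are not independent, and the MCS level enters both measures.

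**Figure D4:**
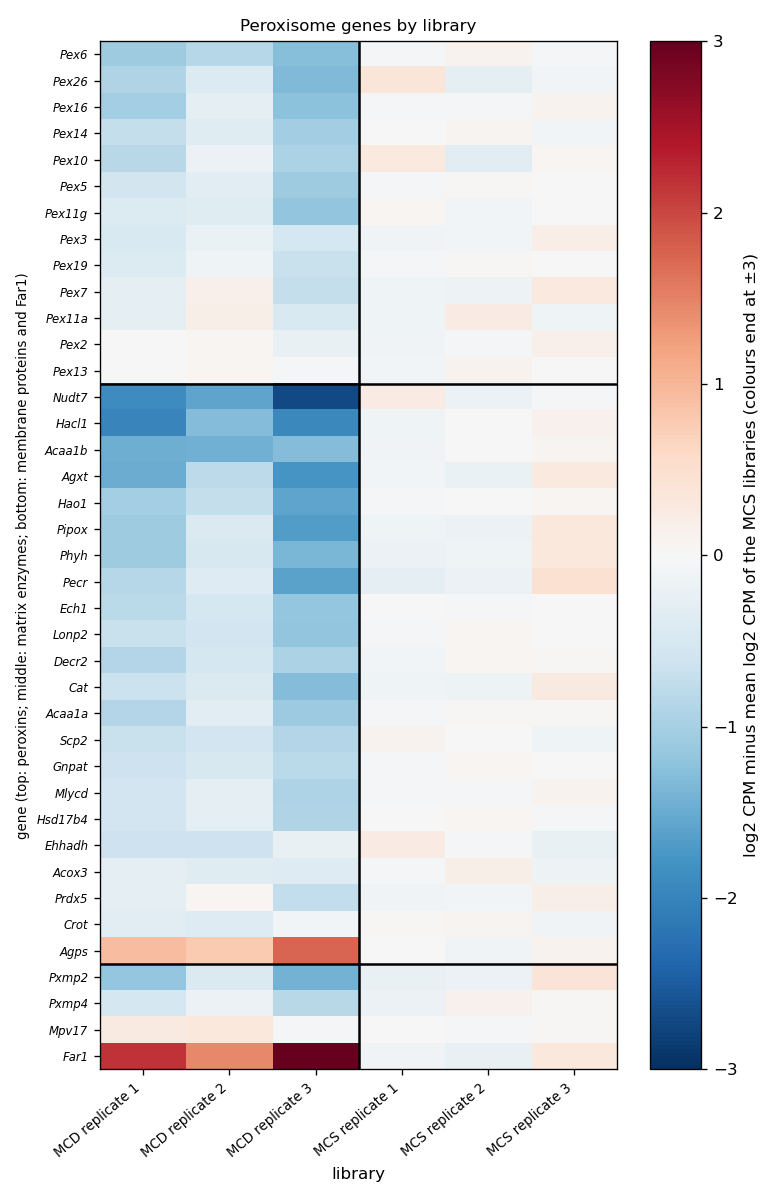
Log2 CPM on TMM-scaled library sizes of each tested member (rows) in each library (columns), minus the mean log2 CPM of the MCS libraries. Blue is lower and red higher, and lines separate peroxins, matrix enzymes, and membrane proteins with Far1. For most rows blue is deepest in MCD replicate 3 and palest among the MCD libraries in MCD replicate 2, and Agps and Far1 are red in all 3 MCD libraries.

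Of the 21 called members, 8 kept their call with library size alone and on the log2(TPM + 1) scale: Acaa1b, Agxt, Hacl1, Hao1, Nudt7 and Pex6 as falls and Agps and Far1 as rises. The other 13, all falls with TMM scaling, had log2 fold changes of -0.49 to -0.05 with library size alone and -0.38 to 0.07 on the log2(TPM + 1) scale, and none passed. With hepatocyte marker scaling 6 calls held, those of Acaa1b, Agxt, Hacl1, Nudt7, Agps and Far1. Each of these scalings moved the median of all tested genes upward. Holding under them is thus no separate support for the rises of Agps and Far1. The falls of 5 genes, those of Acaa1b, Hacl1, Hao1, Nudt7 and Pex6, held in all 6 fits with 1 library left out. Leaving out MCS replicate 1 left 7 member falls among 433 over all tested genes; leaving out MCS replicate 2 left 6 among 400, and MCD replicate 1 left 5 among 430. Without replicate 3 of both diets, an alternative chosen after seeing the data, 17 members fell and 2 rose. Over all tested genes 1533 then fell and 1831 rose.

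**Figure D5:**
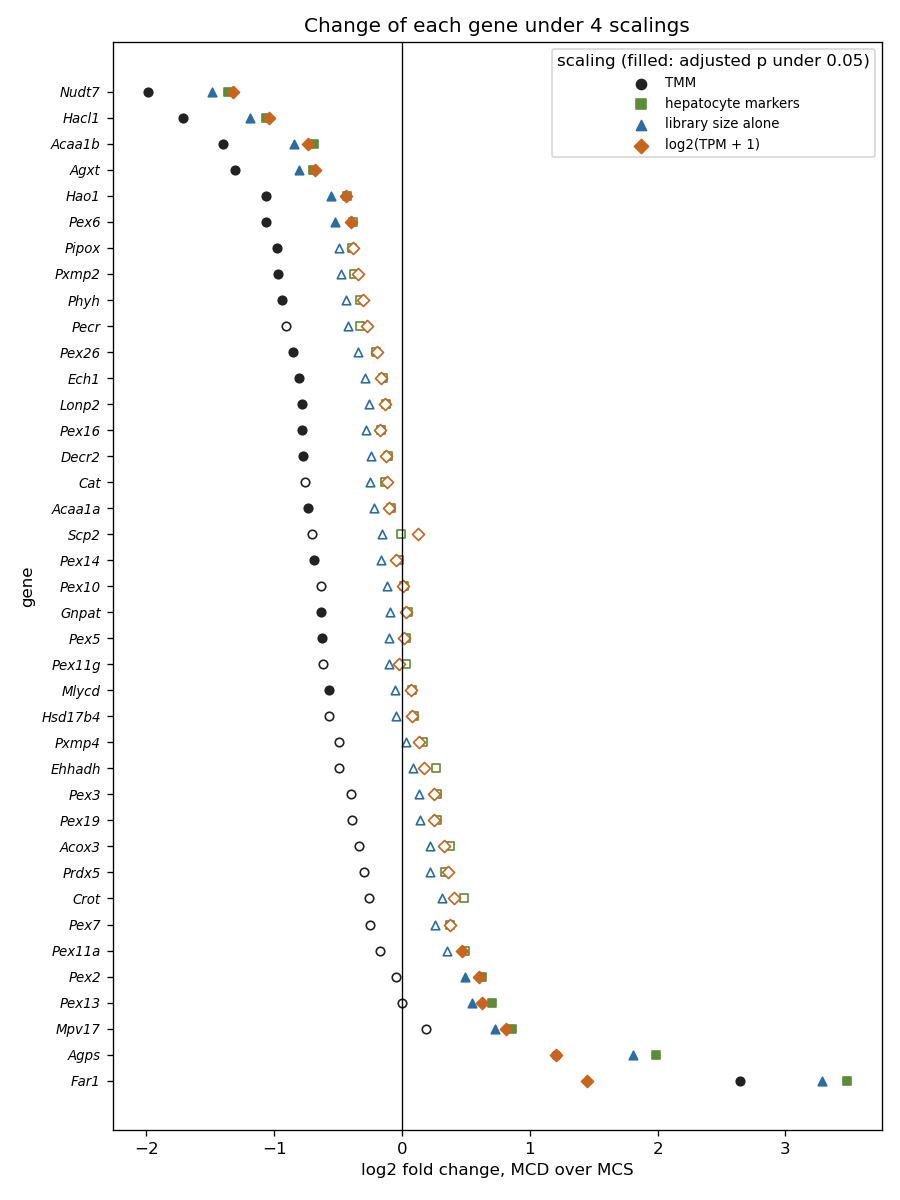
Log2 fold change of MCD over MCS (x axis) for each tested member (y axis, ordered by the TMM value) under TMM scaling, hepatocyte marker scaling, library size alone and log2(TPM + 1); filled symbols passed at an adjusted p under 0.05. With the other scalings most members lie nearer 0 or beyond it, while Nudt7, Hacl1 and Acaa1b stay filled and left of 0 and Agps and Far1 filled and right of 0 under all 4.

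Other genes of the organelle were read from a list of 35 that are no members. Of these 12 fell, 1 rose and 22 did not pass, with a median of -0.35 on the log2 scale. Among the falls with the smallest p were those of Ephx2, an epoxide hydrolase, and Acot8, a peroxisomal acyl-CoA thioesterase. Log2 fold changes were -1.53 ± 0.25 (adjusted p = 0.00422) for Ephx2 and -1.06 ± 0.17 (adjusted p = 0.00430) for Acot8. The 1 rise was that of Abcd2, a transporter of very long-chain acyl-CoA, with 28.7, 27.8 and 35.5 CPM on the MCD diet, against 10.4, 8.08 and 12.4 CPM on the MCS diet, and a log2 fold change of 1.57 ± 0.19 (adjusted p = 0.00113). Abcd3, a transporter in the same membrane, fell, with -0.66 ± 0.19 (adjusted p = 0.0372), and is named by choice after its value was seen. The fission genes Dnm1l, Fis1 and Mff, named by choice after their values were seen, did not pass (0.13, -0.13 and 0.16). With 1 library left out, the rises on this list numbered 1 in each fit and the falls 4 to 17. In the deposited annotation 86 genes carry the KEGG pathway Peroxisome, 40 of them members; of the 40 tested others 18 fell, 3 rose and 19 did not pass (median -0.49), a list consulted after the members' values were known.

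Ppara itself and its textbook targets were read from a list of 24 genes, of which 14 fell, 3 rose and 7 did not pass, with a median of -0.83. Ppara had 92.5, 87.7 and 70.5 CPM on the MCD diet, against 131, 162 and 156 CPM on the MCS diet, and fell, with -0.84 ± 0.17 (adjusted p = 0.00884). Its partner Rxra fell as well, with -0.87 ± 0.23 (adjusted p = 0.0272). Acot1, a cytosolic thioesterase, and the fatty acid hydroxylases Cyp4a12a and Cyp4a10 were the falls with the smallest p, with -2.50 ± 0.22 (adjusted p = 0.000397), -3.47 ± 0.34 (adjusted p = 0.000489) and -2.25 ± 0.30 (adjusted p = 0.00172). The 3 rises were those of Pdk4, which restrains pyruvate oxidation, Fgf21, a fasting hormone of the liver, and Acot2, a mitochondrial thioesterase, with 4.24 ± 0.46 (adjusted p = 0.00161), 1.09 ± 0.21 (adjusted p = 0.00884) and 0.98 ± 0.22 (adjusted p = 0.0141). With library size alone 8 of the 24 fell and 5 rose, while over all 12599 tested genes 348 fell and 5095 rose.

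In the authors' deposited table, whose fold changes are ratios of mean TPM, 1 peroxin, 1 matrix enzyme and 2 of the other 4 members were higher and 4 matrix enzymes were lower on the MCD diet at a false discovery rate under 0.05. The 4 lower ones in the authors' deposited table were Nudt7 (log2 fold change -1.31), Hacl1 (-1.05), Acaa1b (-0.72) and Agxt (-0.69). Those higher in the authors' deposited table were Far1 (3.97), Agps (1.77), Mpv17 (0.83) and Pex13 (0.67). The median log2 fold change there was 0.02 for peroxins and -0.11 for matrix enzymes. The share of all genes that passed in the authors' test was not counted here. Whether the members passed more often than other genes therefore cannot be read from these counts.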

How the data were processed

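Estimated counts and TPM values were deposited by the authors for each gene and library, per the file headers; log2 fold changes with a p-value and FDR were also deposited, by a test not given in the sources used here. The counts are whole numbers, but 64 have a count of 0 beside a TPM above 0, so they were read as estimated counts, rounded before deposit. The submitters' processing notes name the GRCm39 build and, without their roles, HISAT2 2.1.0, Bowtie2 2.2.8, RSEM, StringTie 1.3.1 and fastp 0.18.0. Strandedness is not stated: 17 of the members share exon bases with another gene in GENCODE M21, such as Hacl1 with Btd and Acaa1a with Myd88, and reads of such pairs cannot be told apart.

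Here, counts were tested with edgeR 4.0.16 in R 4.3.3: filterByExpr by group (minimum count 10), TMM scaling, a robust quasi-likelihood fit with diet as its term, and Benjamini-Hochberg adjustment over 12599 genes. Standard errors were taken as log2 fold change over √F. TMM factors were 1.04 to 1.41 in the MCD and 0.797 to 0.873 in the MCS libraries. DESeq2 1.42.0 and limma 3.58.1 served as alternatives, with limma on log2(TPM + 1) using a pseudocount of 1. Floors of 3 counts cover counting error only. Replicates of a diet differed beyond sampling noise in each pair (chi-square over its degrees of freedom, 14.6 to 164). Members and lists were chosen with earlier results of these data known. Per-library values are given for called members and for the most abundant member of each role; of other lists, the 3 called genes with the smallest p per direction are named, with exceptions stated; some genes that this rule would name are not reported here.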

Additional observations from a re-analysis of the deposited data

How the results depend on the processing

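Changing the scaling between libraries turned the sign of many members, and the cause was not tested. With library size alone 1 peroxin fell and 2 rose, 5 matrix enzymes fell, 0 of the other 4 members fell and 2 rose, 6 other peroxisomal genes fell and 9 rose, and 8 PPARA targets fell and 5 rose. Medians were -0.098 for peroxins, -0.25 for matrix enzymes and 0.57 for all genes, of which 5095 rose and 348 fell. Log2 fold changes that changed sign there were Acox3 0.22, Crot 0.32, Ehhadh 0.089, Pex11a 0.35, Pex13 0.55, Pex19 0.14, Pex2 0.49, Pex3 0.14, Pex7 0.26, Prdx5 0.22 and Pxmp4 0.029. On the log2(TPM + 1) scale 1 peroxin fell and 3 rose, 5 matrix enzymes fell, 0 of the other 4 members fell and 2 rose, 4 other peroxisomal genes fell and 9 rose, and 5 PPARA targets fell and 6 rose. Medians were 0.013 for peroxins, -0.12 for matrix enzymes and 0.53 for all genes, of which 5449 rose and 264 fell. There the values of opposite sign were Acox3 0.33, Crot 0.40, Ehhadh 0.17, Pex11a 0.47, Pex13 0.63, Pex19 0.25, Pex2 0.60, Pex3 0.25, Pex7 0.38, Prdx5 0.36, Pxmp4 0.13, Gnpat 0.029, Hsd17b4 0.075, Mlycd 0.0699, Pex10 0.0099, Pex5 0.013 and Scp2 0.12. With hepatocyte marker scaling, chosen after seeing the data, 0 peroxins fell and 2 rose, 4 matrix enzymes fell, 0 of the other 4 members fell and 2 rose, 3 other peroxisomal genes fell and 7 rose, and 5 PPARA targets fell and 5 rose. Medians were 0.033 for peroxins, -0.12 for matrix enzymes and 0.73 for all genes, of which 5064 rose and 212 fell. Signs turned for Acox3 0.38, Crot 0.48, Ehhadh 0.27, Pex11a 0.49, Pex13 0.70, Pex19 0.27, Pex2 0.63, Pex3 0.27, Pex7 0.37, Prdx5 0.34, Pxmp4 0.16, Gnpat 0.0498, Hsd17b4 0.094, Mlycd 0.076, Pex10 0.014, Pex5 0.027 and Pex11g 0.033, and the summed thiolase copies no longer passed (-0.56, adjusted p = 0.0607). Without replicate 3 of both diets, also chosen after seeing the data, 0 of the other 4 members fell and the values of Pex13 0.0061, Pex2 0.12 and Pex7 0.10 had the opposite sign. By limma-voom 0 of those 4 rose and Pex13 was at 0.0017. 

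With 1 library left out, 1 to 8 peroxins and 4 to 17 matrix enzymes fell, 0 to 1 matrix enzymes rose, 0 to 2 of the other 4 members fell and 0 to 1 rose, 4 to 17 other peroxisomal genes and 7 to 15 PPARA targets fell, and over all genes 946 to 2363 rose and 400 to 2072 fell. The median of peroxins minus that of matrix enzymes was 0.13 to 0.32, Pex13 was at -0.058 to 0.043 and Pex2 at -0.13 to 0.035. Replicate numbers were not used to pair the libraries in the main fit. Deviations of libraries with the same number correlated at 0.063, 0.147 and 0.246, and those with different numbers at -0.223 to 0.132. With the replicate block 6 peroxins and 11 matrix enzymes fell: Phyh (adjusted p = 0.0568) and Mlycd (adjusted p = 0.0513) did not pass and Pex11g did (adjusted p = 0.0440). Of the 6 libraries, 5 correlated best with their own number, a hint from the data and not the design. By DESeq2 6 peroxins, 18 matrix enzymes and 25 members in all fell, and 6 genes that edgeR did not call passed as lower: Cat (adjusted p = 0.0116), Ehhadh (0.0318), Hsd17b4 (0.00965), Pecr (0.0199), Pex11g (0.0442) and Scp2 (1.98e-05). Among the called members, Nudt7, Hacl1 and Acaa1b passed under all 14 alternatives. Counts were low for Far1 and Pex10, and too low for a test for Hao2 and Dao.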
